A study of Mus musculus with 54 samples.

Results

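Day 2 primordial germ cell-like cells (PGCLC) of the mouse line labelled Cdh1-Tg, which carries a transgene for the adhesion protein E-cadherin (Cdh1), were compared with PGCLC of the line labelled TKO. The comparison was set by the sample titles and column names and not by measured values. It uses 4 of the 54 messenger RNA libraries of the series, 2 of each line. The series followed 9 lines from embryonic stem cells (ESC) through epiblast-like cells (EpiLC) to day 2 PGCLC, with 2 libraries in each of 27 groups. Both lines are given the strain C57BL/6 X 129/SvJ. The labels name the genotypes as TKO and Cdh1 OE and spell out neither further. The genes disrupted in TKO, the background of the Cdh1-Tg line, the promoter of its transgene and the number of clones are not given in the labels. Beside these 4 libraries, the wild type (WT) and Ovol2a/2b-Tg PGCLC pairs and the ESC and EpiLC pairs of Cdh1-Tg and TKO serve as references, all of the same strain label.

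E-cadherin joins neighbouring epithelial cells at adherens junctions, where its tail holds beta-catenin and p120-catenin and, through alpha-catenin, the actin skeleton. Epithelial cells that turn into mesenchyme, as at the primitive streak, lose E-cadherin under repressors of the Snail and Zeb families, and Ovol proteins are zinc finger factors that keep epithelial cells from this transition. Primordial germ cells arise beside the streak under BMP signals, switch on Prdm1 and Tfap2c, keep E-cadherin while their mesodermal neighbours lose it, and regain pluripotency genes.

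Expression was given in TPM, the share of a gene in the messenger RNA of a library after division of its reads by its length. The TKO pair held 2936639 and 12336243 reads on genes and the Cdh1-Tg pair 14646047 and 12446797. The cell type tag of the Cdh1-Tg PGCLC pair says embryonic stem cells, against its title, so stage markers were checked. In the Cdh1-Tg pair the streak gene T stood at 633 to 651 TPM, against 1.06 to 1.49 in the ESC and 1.1 to 1.75 in the EpiLC pair, and the ESC marker Klf4 at 3.79 to 4.14 against 171 to 173 in ESC. The title's stage therefore fits these markers and the tag does not. Whether the 2 libraries of a group are separate cultures is not said, and p-values here cover just the spread between libraries, which may be technical. The 2 Cdh1-Tg PGCLC libraries differed little beyond read sampling, with a chi-square per degree of freedom of 1.43 against 2.06 in TKO. Naming styles in the labels differ between the lines, and any batch that follows them cannot be told apart from the line.

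Of 14416 genes tested with limma on log2(TPM + 1), 331 (2.3%) differed between Cdh1-Tg and TKO PGCLC with an adjusted p (Benjamini-Hochberg, BH) under 0.05 and a log2 fold change of 1 or more either way. Of these, 143 (0.992%) were higher and 188 (1.3%) lower in Cdh1-Tg, and the median log2 fold change of all tested genes was 0.02. The excess of falls was not stable: 238 genes were higher and 236 lower with 0.1 in place of 1 added to the TPM, 30 and 84 with 5 added, and 185 and 168 without TKO replicate 1. Without the condition on the fold, 1660 genes (11.5%) were higher and 1082 (7.51%) lower. The libraries of the 2 lines did not overlap for 36% of all tested genes with Cdh1-Tg higher and 28.8% with Cdh1-Tg lower, so a lack of overlap is common among all genes. Only genes past both conditions are said below to rise, fall or change. Groups of genes were fixed lists, chosen with earlier results of these data known. The share of all tested genes called in the same direction stands beside each list's count. Such shares describe the lists and are no independent test of them. The log2 fold change also went with gene length. In 5 equal bins from the shortest to the longest genes its median was -0.01, -0.04, -0.01, 0.05 and 0.20. Called rises had a median length of 3573 bases and called falls 1876, against 2817 for all tested genes. The part of length in small list medians was not tested. In bulk RNA, fewer cells of a type and less RNA per cell cannot be told apart.

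**Figure D1:**
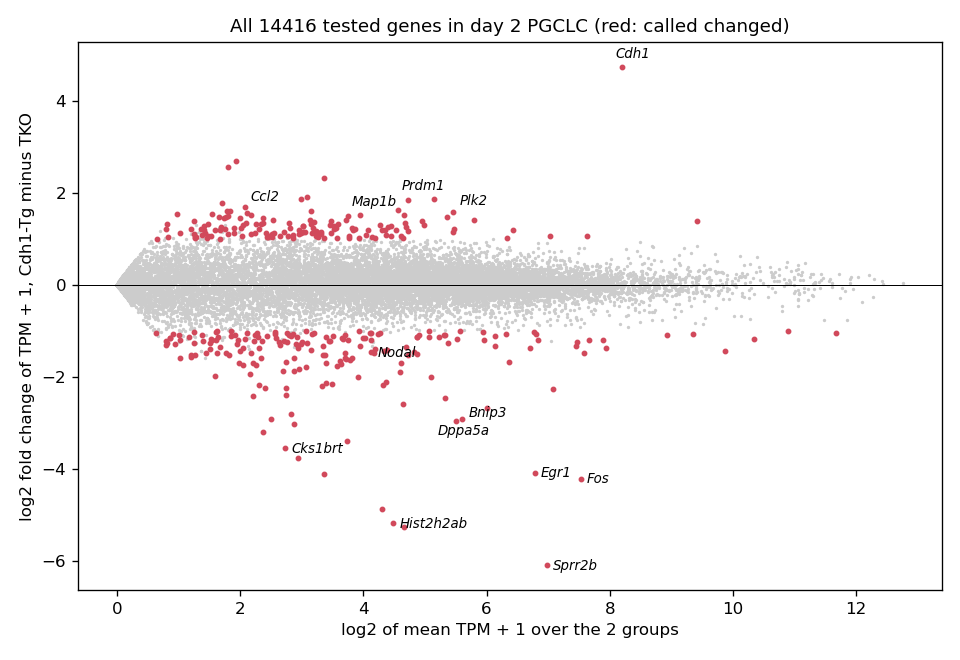
Each point is 1 of the 14416 tested genes in day 2 PGCLC. The horizontal axis is the log2 of the mean TPM + 1 over the TKO and Cdh1-Tg pairs, the vertical axis the log2 fold change of Cdh1-Tg against TKO, and red marks the 331 called genes. Cdh1 stands alone at the top at 4.72, while Fos, Egr1 and Sprr2b lie furthest below 0 among genes of a similar or higher level.

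Cdh1 itself showed the largest rise. Its level was 24 and 17.2 TPM in the TKO libraries and 562 and 563 in Cdh1-Tg, a 27.3-fold difference (log2 fold change 4.72 ± 0.11 SE, limma adjusted p = 1.24e-12). Both Cdh1-Tg libraries also lay above both WT libraries, at 312 and 319.7, and the Ovol2a/2b-Tg libraries, at 173 and 174. The gene lies at chr8:106603350-106670247 (GRCm38). One value is given per gene, so transcripts of the transgene and of the cells' own gene cannot be told apart. The level in Cdh1-Tg was much alike at the 3 stages, with 606 and 565 TPM in ESC and 689 and 701 in EpiLC. In TKO it went from 285 and 266 in ESC and 336 and 350.4 in EpiLC to the low PGCLC values. The transgenic line thus kept in PGCLC the Cdh1 level that TKO lost between EpiLC and PGCLC, and the difference between the lines was larger in PGCLC than in EpiLC by a log2 of 3.71 ± 0.13 (limma, adjusted p = 2.05e-21).

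No Ovol gene was called between the lines at this stage. Ovol2 stood at 1.52 and 0.835 TPM in TKO and at 1.46 in both Cdh1-Tg libraries (log2 fold change 0.19 ± 0.27), against 11.3 and 6.98 in WT. Ovol3 was 5.76 and 5.53 in TKO and 6.95 and 5.26 in Cdh1-Tg (0.09 ± 0.24), and Ovol1 was at or below 0.504 in all 4 libraries. Ovol2 was thus below WT in both lines.

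**Figure D2:**
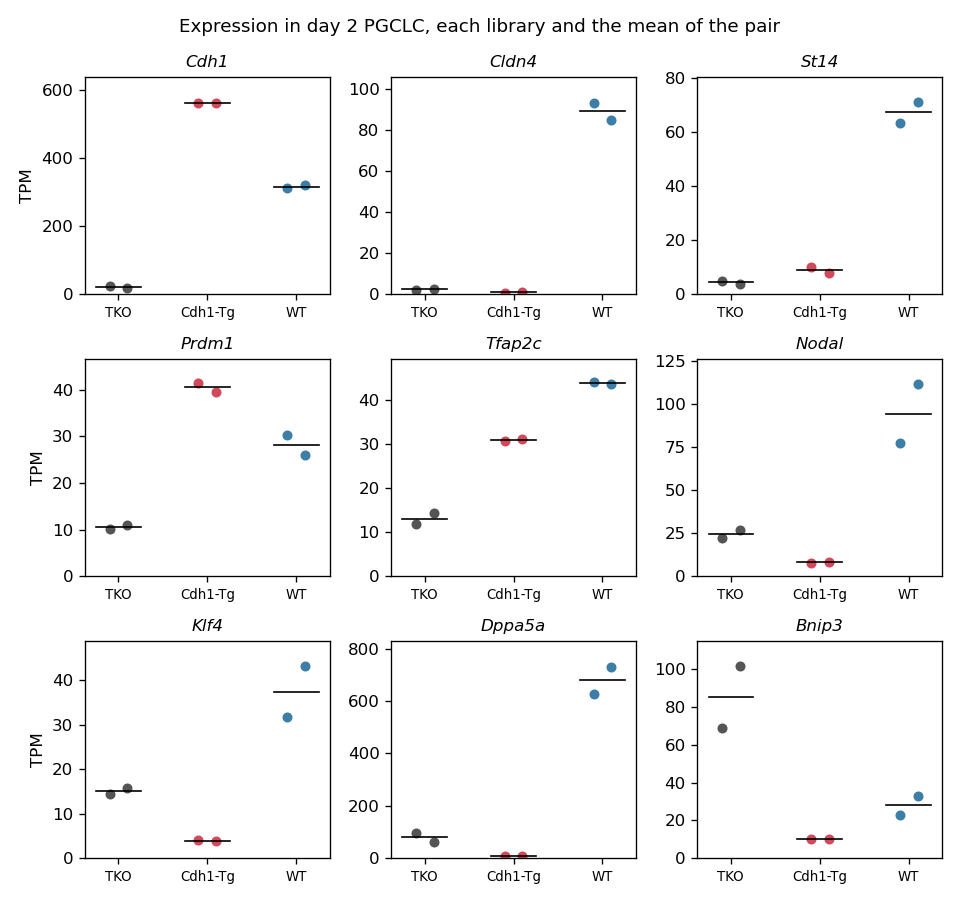
Each panel gives the TPM of 1 gene in the 2 PGCLC libraries of TKO, Cdh1-Tg and WT, with a line at the mean of the pair and an axis that starts at 0. Cdh1, Prdm1 and Tfap2c are higher in Cdh1-Tg than in TKO, Cldn4 and St14 stay far below WT in both, and Nodal, Klf4, Dppa5a and Bnip3 are lower in Cdh1-Tg than in TKO.

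No partner of E-cadherin in the adherens junction was called. Of 18 tested genes of the adherens junction and catenin list, only Cdh1 rose (5.56% of the list, against 0.992% of all tested genes) and none fell, with a median log2 fold change of 0.25. Beta-catenin (Ctnnb1), the link from cadherins to alpha-catenin and the effector of WNT signalling, stood at 627 and 633 TPM in TKO and 656 and 657 in Cdh1-Tg (0.06 ± 0.04). Alpha-catenin (Ctnna1), which ties the complex to actin, was 256 and 271 in TKO and 336 and 330.2 in Cdh1-Tg (0.34 ± 0.05, limma adjusted p = 0.000282). The difference was small. Plakoglobin (Jup), the close relative of beta-catenin found also in desmosomes, went the other way, at 27.4 and 29.1 in TKO and 18.1 and 19.1 in Cdh1-Tg (-0.58 ± 0.09, adjusted p = 0.000378), against 84.3 and 88.5 in WT. N-cadherin (Cdh2), the cadherin of mesoderm and neural cells, was 219 and 216 in TKO and 204 and 205 in Cdh1-Tg (-0.09 ± 0.27), while WT had 89.3 and 66.7. Cdh1-Tg PGCLC thus held a WT-like or higher Cdh1 level together with a Cdh2 level near that of TKO. The other members ran from -0.03 for Cdh4 to 0.74 ± 0.34 for Cdh6, and none was called.

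No tight junction or epithelial gene was called higher beside Cdh1. Of 22 tested tight junction and polarity genes none rose and none fell against TKO (median 0.26), and of 29 tested epithelial regulators and markers again none rose and none fell (median 0.05). Without the fold condition 8 members of each list were higher and 0 and 2 were lower, where 11.5% of all tested genes were higher and 7.51% lower. Cldn4, a claudin of epithelial tight junctions, stood at 2.14 and 2.83 TPM in TKO, 0.793 and 1.23 in Cdh1-Tg and 93.5 and 85.3 in WT (-0.79 ± 0.30 against TKO, limma adjusted p = 0.0768). Crb3, an apical polarity protein, was at 0 and 0.316 in TKO, 0.552 and 0.966 in Cdh1-Tg and 25.1 and 29.1 in WT (0.61 ± 0.24, adjusted p = 0.0939). Cgn, the tight junction scaffold cingulin, had 5.53 and 5.3 in TKO, 8.17 and 8.02 in Cdh1-Tg and 30.5 and 31 in WT (0.50 ± 0.16, adjusted p = 0.0439). For these 3 genes both lines lay far under WT. The membrane protease St14 (matriptase) was nearest to a call, with 5.01 and 3.87 in TKO, 10.2 and 7.92 in Cdh1-Tg and 63.5 and 71 in WT (0.89 ± 0.19, adjusted p = 0.00477). Krt8, a keratin of simple epithelia, was 471 and 510.2 in TKO and 839 and 907 in Cdh1-Tg, above the 580.2 and 530.4 of WT (0.83 ± 0.23, adjusted p = 0.0261). Of the 40-base stretches (words) of their transcripts, 29.1% for Krt8 and 19.4% for Cgn occur in other genes, which leaves their levels uncertain.

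Set against WT PGCLC, the gap in the epithelial programme of Cdh1-Tg can be counted. In that comparison 11 of 22 tight junction genes and 17 of 29 epithelial genes were called lower in Cdh1-Tg and none higher, where 4.3% of all tested genes were lower and 5.56% higher. The list medians were -1.32 and -1.67. The mean log2(TPM + 1) of the epithelial list was 3.33 to 3.38 in the TKO libraries, 3.52 to 3.57 in Cdh1-Tg and 5.10 to 5.19 in WT, and that of the tight junction list was 2.91 to 2.93, 3.07 to 3.15 and 4.83 to 5.0. The summed TPM of the epithelial list, to which Krt8 alone gave 839 and 907 in Cdh1-Tg, was nearer to WT, at 1483 to 1554 in TKO, 2295 to 2375 in Cdh1-Tg and 2598 to 2746 in WT. That of the tight junction list was 376 to 396, 478 to 481 and 1020.1 to 1104. By mean log2 the Ovol2a/2b-Tg pair lay between them, at 4.42 to 4.43 for the epithelial and 4.08 to 4.16 for the tight junction list. Against that line 8 tight junction and 13 epithelial genes were lower in Cdh1-Tg and none higher (2.42% and 2.12% of all tested genes).

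Promoters of Cldn4 and Crb3 are printed because these genes were far below WT while Cdh1 was above it. Sequences are from RefSeq (GRCm38.p6), 5′ to 3′ on the gene's strand, the 250 bases before the start site, and the 2 genes were chosen after their values were seen. Capitals mark CAGGTG on either strand (read as CACCTG on the other), the E-box form that Snail and Zeb proteins are known to bind. Cldn4 spans chr5:134946935-134947184 (minus strand) and Crb3, the first of 2 listed starts, chr17:57061951-57062200 (plus strand).
Cldn4: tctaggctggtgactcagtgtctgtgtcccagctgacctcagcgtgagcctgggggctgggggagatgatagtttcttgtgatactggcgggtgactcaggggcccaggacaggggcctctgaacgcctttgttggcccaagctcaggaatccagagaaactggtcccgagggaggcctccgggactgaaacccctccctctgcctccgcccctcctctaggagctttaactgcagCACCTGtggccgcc
Crb3: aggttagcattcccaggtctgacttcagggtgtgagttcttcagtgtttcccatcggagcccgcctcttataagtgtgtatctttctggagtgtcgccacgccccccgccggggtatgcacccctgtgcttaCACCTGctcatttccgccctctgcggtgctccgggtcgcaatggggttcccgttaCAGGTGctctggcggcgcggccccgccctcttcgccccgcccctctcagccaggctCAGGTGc
In the full windows of 250 bases before to 50 after the start, Cldn4 held 2 such matches and Crb3 4, of which 1 each lies past the start at positions 12 and 26. The motif was found for 14 of the 17 tight junction genes with a window (82.4%) and 11 of 14 epithelial genes (78.6%), against 20.2% of all 32851 windows and 22.3% of the 11437 tested genes with a window. A match describes the letters only and is no measure of binding.

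Among mesenchymal genes a single member was called. Of 21 tested genes of the mesenchymal transition list 1 rose (0.992% of all tested genes did) and none fell (median 0.06), while against WT 12 of 21 were higher in Cdh1-Tg and none lower (5.56% and 4.3% of all tested genes). Tgfbi, a secreted matrix protein, rose from 30.4 and 21.6 TPM in TKO to 67.5 and 54.8 (1.21 ± 0.28, limma adjusted p = 0.00682), against 3.15 and 2.47 in WT. The call was lost without Cdh1-Tg replicate 1 (1.07, adjusted p = 0.0777) or TKO replicate 2 (0.98, 0.0797), and p ranged from 0.00184 to 0.0797 over its alternatives. Twist1, a transcription factor of mesoderm and of the transition, had 39.9 and 48.8 in TKO and 66.5 and 66 in Cdh1-Tg (0.58 ± 0.15, adjusted p = 0.013), against 8.53 and 7.53 in WT. Snai1, the Snail repressor of Cdh1, was 124 and 111 in TKO and 84.3 and 75.1 in Cdh1-Tg (-0.56 ± 0.16, adjusted p = 0.022). Both lines thus held Twist1 and Tgfbi well above WT.

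**Figure D3:**
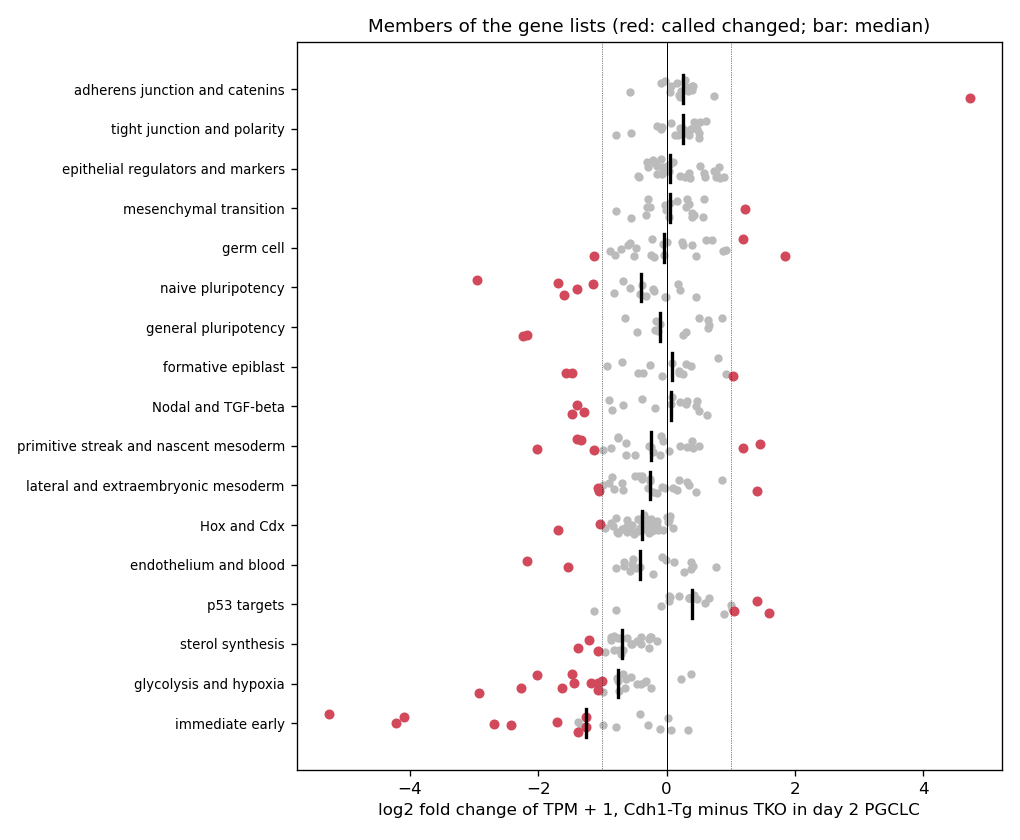
Each point is a tested member of 1 of 17 gene lists, placed by its log2 fold change of TPM + 1 in Cdh1-Tg against TKO PGCLC, with called genes in red, a bar at the list's median and dotted lines at a log2 of 1 either way. Junction, epithelial and mesenchymal lists centre between 0.05 and 0.26 apart from Cdh1, while immediate early, glycolysis and sterol lists centre at -1.26, -0.76 and -0.69.

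Among germ cell genes, 2 key regulators rose and most of the others were not called. Of 24 tested members, Prdm1 and Tfap2c rose and Rhox5 fell (0.992% and 1.3% of all tested genes did so), and the list's median was -0.05. Prdm1 (Blimp1), the repressor that starts germ cell specification, stood at 10.1 and 10.9 TPM in TKO, 41.5 and 39.4 in Cdh1-Tg and 30.3 and 25.9 in WT. The rise was 3.84-fold (1.85 ± 0.21, limma adjusted p = 3.44e-05), and the Cdh1-Tg pair lay above the pairs of all 8 other lines. Tfap2c, the AP2-gamma factor that acts with Prdm1, was 11.9 and 14.4 in TKO, 30.8 and 31.3 in Cdh1-Tg and 44.1 and 43.7 in WT (1.19 ± 0.20, adjusted p = 0.000917), a call that ended with 5 in place of 1 added to the TPM before the log (1.0). Rhox5, an X-linked homeobox gene, went from 53.2 and 48 to 22.9 and 22.1 (-1.13 ± 0.28, adjusted p = 0.0131), near the WT values of 17.4 and 25.9. That call was lost without any 1 of the 4 libraries: adjusted p was 0.072 and 0.0836 without Cdh1-Tg replicates 1 and 2, and 0.075 and 0.0541 without TKO replicates 1 and 2, within 0.0001 to 0.0836 over the alternatives. Kit, the receptor of migrating germ cells, had 14.3 and 13.3 in TKO and 31.2 and 23.6 in Cdh1-Tg (0.93 ± 0.21, adjusted p = 0.00642). Nanos3, needed for germ cell survival, had 3.18 and 7.52 in TKO and 1.97 and 2.55 in Cdh1-Tg (-0.88 ± 0.51, adjusted p = 0.261), against 9.81 and 9.05 in WT. Prdm14 and Dppa3, chosen after their values were seen, were likewise not called: Prdm14 had 10.8 and 9.45 against 13.8 and 14.7 (0.46), and Dppa3 0.947 and 0.671 against 0.195 and 0.228 (-0.57), with 18 and 20.4 in WT.

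Several pluripotency genes that TKO still expressed fell in the Cdh1-Tg line. Of 18 naive pluripotency genes 5 fell and none rose (27.8% of the list, against 1.3% of all tested genes; median -0.40), and of 15 general pluripotency genes 2 fell and none rose (median -0.10). Klf4, a reprogramming factor, stood at 14.5 and 15.7 TPM in TKO, 4.14 and 3.79 in Cdh1-Tg and 31.7 and 43.2 in WT (-1.70 ± 0.24, limma adjusted p = 0.000271). Klf2, its relative, had 17.9 and 22.5 in TKO, 7.29 and 4.82 in Cdh1-Tg and 98.4 and 119.5 in WT (-1.60 ± 0.23, adjusted p = 0.000373). Esrrb, a nuclear receptor of the naive network, had 3.02 and 3.25 in TKO and 0.449 and 0.685 in Cdh1-Tg, against 30.9 and 29.2 in WT (-1.40 ± 0.28, adjusted p = 0.00303), and was not called with 5 added to the TPM (adjusted p = 0.102) or with voom (0.129), in a range of 1.26e-05 to 0.129. For all 3, TKO lay below WT and Cdh1-Tg below TKO, with no overlap (Cdh1-Tg lay below TKO with no overlap for 28.8% of all tested genes). Dppa5a, an RNA-binding protein of pluripotent cells, went from 98.2 and 61.8 in TKO to 8.73 and 9.61 (-2.96 ± 0.30, adjusted p = 7.73e-05), where WT had 628 and 730.5 and Ovol2a/2b-Tg 147 and 203. With voom, a limma test on read counts recovered from the TPM, it missed the threshold (-2.92, adjusted p = 0.077; 2.74e-12 to 0.077 over the alternatives), and 48.4% of its 40-base words occur in other genes, which leaves its level uncertain. The chromatin proteins Dppa4 and Dppa2, which act as a pair, fell alike: Dppa4 went from 8.08 and 7.39 to 0.728 and 0.971 (-2.24 ± 0.31) and Dppa2 from 9.97 and 4.43 to 0.657 and 0.767 (-2.17 ± 0.30). Their WT levels were 20.9 and 23.4 for Dppa4 and 20.2 and 17 for Dppa2, and 36.5% and 31.5% of their words are shared with other genes. Zfp42 (Rex1) fell as well, from 2.58 and 1.62 to 0.266 and 0.517 (-1.15 ± 0.26), but not without Cdh1-Tg replicate 1 (-1.01, adjusted p = 0.0669) or TKO replicate 1 (-0.92, adjusted p = 0.0627; 1.31e-05 to 0.113 over the alternatives).

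Not every pluripotency gene went down. Sox2, an epiblast and germ cell factor, had 17.7 and 14.4 TPM in TKO, 29.3 and 29.9 in Cdh1-Tg and 84.4 and 89.1 in WT (0.86 ± 0.21, limma adjusted p = 0.0129). Of 17 formative epiblast genes, Pou3f1 rose and Dnmt3l and Nodal fell (5.88% and 11.8% of the list, against 0.992% and 1.3% of all tested genes). Pou3f1 (Oct6) had 10.3 and 10.9 in TKO and 22.1 and 23.2 in Cdh1-Tg (1.03 ± 0.26, adjusted p = 0.0113). Its call was lost without Cdh1-Tg replicate 1 (adjusted p = 0.0604) or 2 (0.0781) and without TKO replicate 1 (0.0583) or 2 (0.0509), in a range of 0.00023 to 0.0781. Dnmt3l, the cofactor of de novo DNA methylation, went from 2.32 and 2.53 to 0.179 and 0.139 (-1.56 ± 0.26, adjusted p = 0.000771), and was not called with 5 added to the TPM (-0.53, adjusted p = 0.0501, in a range of 2.1e-07 to 0.0501). The 2 lines did not overlap for any of these genes, as for 36% of all tested genes with Cdh1-Tg higher and 28.8% with it lower.

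Nodal and its targets Lefty1 and Lefty2 fell together. They were the 3 called members of the 17 tested genes of the Nodal and TGF-beta list, and none rose (17.6% of the list, against 1.3% of all tested genes; median 0.06). Nodal, the ligand that patterns the epiblast and streak, had 22.6 and 26.7 TPM in TKO, 8 and 8.44 in Cdh1-Tg and 77.2 and 112 in WT (-1.47 ± 0.16, limma adjusted p = 2.76e-05). Lefty2, a secreted Nodal antagonist that Nodal induces, had 28 and 23.3 in TKO and 8.55 and 9.53 in Cdh1-Tg (-1.40 ± 0.20, adjusted p = 0.000324). Lefty1, its neighbour on chromosome 1, had 9.65 and 10.8 and then 3.68 and 3.48 (-1.29 ± 0.28, adjusted p = 0.00579). All 3 were lowest in Cdh1-Tg, then TKO, then WT, with no overlap (28.8% of all tested genes were lower in Cdh1-Tg than TKO with no overlap). Lefty1 missed the threshold without Cdh1-Tg replicate 2 (adjusted p = 0.052) or TKO replicate 2 (0.0506), in a range of 0.00269 to 0.259, and Lefty2 did so with voom (0.0576, in a range of 2.53e-05 to 0.0576). Of their 40-base words 21.9% for Lefty1 and 14.9% for Lefty2 are shared with other genes. The inhibitory Smad7 was lower without reaching the fold (-0.68 ± 0.07, limma adjusted p = 2.58e-05).

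Mesodermal genes went both ways, in few calls. Of 25 streak and nascent mesoderm genes 2 rose and 4 fell (8% and 16% of the list, against 0.992% and 1.3% of all tested genes; median -0.24), and of 27 lateral and extraembryonic mesoderm genes 1 rose and 2 fell (median -0.27). Dll3, a Notch ligand of presomitic mesoderm, went from 58.4 and 49 TPM in TKO to 12.7 and 12.3 in Cdh1-Tg (-2.01 ± 0.24, limma adjusted p = 5.9e-05), below the 28 and 22.5 of WT. Aplnr, the apelin receptor of early mesoderm, went from 20.6 and 21.7 to 8.01 and 7.62 (-1.33 ± 0.30, adjusted p = 0.00664) and missed the threshold without Cdh1-Tg replicate 2 (adjusted p = 0.0546, in a range of 3.29e-05 to 0.0546). Nkx1-2, a gene of the caudal epiblast, rose from 63.5 and 41.3 to 122 and 115 (1.19 ± 0.22, adjusted p = 0.00206), with a log2 fold change of 0.89 without TKO replicate 2. None of these pairs overlapped, as for 36% of all tested genes with Cdh1-Tg higher and 28.8% with it lower. Hand1, a factor of extraembryonic and lateral mesoderm, stayed high at 875 and 849, against 1308 and 1469 in TKO and 141 and 80.9 in WT (-0.68 ± 0.47 against TKO, adjusted p = 0.366). Foxf1, of the same tissue, had 117 and 124 in TKO and 63.7 and 56.9 in Cdh1-Tg (-0.98 ± 0.21, adjusted p = 0.00412), against 8.16 and 7.13 in WT. The lateral mesoderm calls were Ahnak, which rose, and Vegfa and Tbx2, which fell. Vegfa counts in the glycolysis and hypoxia list as well, and Lefty2 of the streak list in the Nodal list. Tbx2 lost its call when any 1 of the 4 libraries was left out. Ahnak did so with the trend on gene length removed (0.86). Apln, a streak gene that rose, was not called with voom (1.94, adjusted p = 0.418). Against WT, 16 of the 27 lateral mesoderm genes were higher in Cdh1-Tg and none lower (5.56% and 4.3% of all tested genes).

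Posterior and blood genes mostly had log2 fold changes below 0, with few calls. Of 39 tested Hox and Cdx genes 34 had a log2 fold change below 0 and 4 above it. Among all 14416 tested genes 6525 were below 0 and 7627 above. The median was -0.39, against 0.02 for all tested genes. Only Cdx4 and Hoxc5 fell (5.13% of the list, against 1.3% of all tested genes) and none rose. The Hoxc5 call was lost without Cdh1-Tg replicate 1 (adjusted p = 0.0538) or TKO replicate 1 (0.0716), in a range of 1.25e-05 to 0.0822. Cdx4, a posterior regulator of Hox genes, had 132 and 119 TPM in TKO, 38.3 and 38 in Cdh1-Tg and 3.17 and 1.58 in WT (-1.69 ± 0.31, limma adjusted p = 0.00182). Cdh1-Tg thus lay between TKO and WT for Cdx4. Against WT, 27 of the 39 genes were called higher in Cdh1-Tg and 1 lower, with a median of 1.61. Of all tested genes 5.56% were higher and 4.3% lower in that comparison. Hoxb3 had 35.4 and 39.4 in TKO and 18.2 and 19.1 in Cdh1-Tg (-0.97 ± 0.17, adjusted p = 0.00148). Of 19 tested endothelial and blood genes Etv2 and Tal1 fell (10.5% of the list, against 1.3% of all tested genes) and none rose. A further 8 members were too low to test. Etv2, the switch of blood and vessel progenitors, went from 28.1 and 35.2 to 5.48 and 6.93, near the 8.84 and 5.1 of WT (-2.18 ± 0.43, adjusted p = 0.00321). Tal1, a blood stem cell factor, went from 1.81 and 3.04 to 0.112 and 0.218 (-1.53 ± 0.21, adjusted p = 0.000186), which shrank to -0.52 with 5 added to the TPM.

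Among genes that p53 induces, 3 rose. Of 20 tested p53 targets 3 rose and none fell (15% of the list, against 0.992% of all tested genes), 12 were higher without the fold condition (11.5% of all tested genes were), and the median was 0.39. Plk2, a stress-induced kinase, had 19.4 and 22.7 TPM in TKO, 64.2 and 65.6 in Cdh1-Tg and 55.9 and 61.2 in WT (1.59 ± 0.13, limma adjusted p = 1.92e-06). Ccng1 (cyclin G1) had 136 and 119.9 in TKO, 268 and 264 in Cdh1-Tg and 203 and 201 in WT (1.05 ± 0.07, adjusted p = 4.83e-07), and fell short of the fold without TKO replicate 2 (0.96). Eda2r, a death receptor, had 6.79 and 5.6 in TKO, 17.7 and 18.3 in Cdh1-Tg and 10.1 in both WT libraries (1.40 ± 0.15, adjusted p = 2.58e-05). In each of these 3 genes Cdh1-Tg lay above both TKO and WT. For the whole list the median against WT was 0.06, with 0 members called higher and 3 lower in Cdh1-Tg (5.56% and 4.3% of all tested genes). Against TKO the list median was also 0.44 in WT, 0.45 in Ovol1KO, 0.32 in Ovol2a/2b-Tg and 0.15 in Ovol2a-Tg. It lay between -0.07 and -0.01 in Ovol2KO, Ovol3KO and Ovol2b-Tg. For Cdh1-Tg against TKO it was 0.40 in EpiLC and -0.16 in ESC. Gdf15, a stress cytokine of the same list, had the opposite sign without passing the test (-1.13 ± 0.42, adjusted p = 0.0757).

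Many genes of glycolysis and the hypoxia response fell. Of 25 tested members 10 fell and none rose (40% of the list, against 1.3% of all tested genes), 18 were lower and 2 higher without the fold condition (7.51% and 11.5% of all tested genes were), and the median was -0.76. Bnip3, a mitophagy receptor induced by hypoxia, had 68.8 and 102 TPM in TKO, 10.2 and 10.1 in Cdh1-Tg and 23 and 33.1 in WT (-2.93 ± 0.26, limma adjusted p = 4.42e-06; 18.5% of its words are shared with other genes). Slc16a3, the lactate exporter MCT4, had 204 and 241 in TKO, 44.8 and 46 in Cdh1-Tg and 111 and 149 in WT (-2.26 ± 0.17, adjusted p = 1.49e-06). Pdk1, the kinase that keeps pyruvate out of mitochondria, had 19.7 and 26.9 in TKO and 4.98 and 4.92 in Cdh1-Tg (-2.01 ± 0.21, adjusted p = 1.75e-05). Cdh1-Tg was below TKO and WT in each of these 3 genes. Of the 25 members 3 were called lower against WT and none higher (4.3% and 5.56% of all tested genes). Further falls were those of the enzymes Aldoc, Pfkl, Pgk1, Aldoa, Tpi1 and Ldha and of Vegfa, an inducer of vessels, while Gapdh was among the 2 members above 0; these names were chosen after their values were seen. The summed level of the list was 17944 to 20378 TPM in TKO, 10814 to 11116 in Cdh1-Tg, 13285 to 15359 in WT and 10188 to 10539 in Ovol2a/2b-Tg. It was 10558 to 11152 in Ovol3KO. Most other lines were also below TKO, with list medians of -0.59 in WT, -0.50 in Ovol1KO, -0.44 in Ovol2KO and -0.78 in Ovol3KO. The medians were -0.58 in Ovol2a-Tg, -0.83 in Ovol2a/2b-Tg and -0.01 in Ovol2b-Tg.

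Promoters of Bnip3 and Slc16a3 are shown because these genes fell most in the list and their windows carry ACGTG, the core of the element known to be bound by hypoxia-inducible factors. As above, the 250 bases before the start are from RefSeq (GRCm38.p6), and capitals mark ACGTG on either strand (CACGT on the other). Bnip3 spans chr7:138909507-138909756 (minus strand), with 2 overlapping matches that form 1 palindrome, and Slc16a3 spans chr11:120948817-120949066 (plus strand). The Slc16a3 window lies inside the listed span of that gene, chr11:120948484-120959000, so its start site is an internal one and not the outermost.
Bnip3: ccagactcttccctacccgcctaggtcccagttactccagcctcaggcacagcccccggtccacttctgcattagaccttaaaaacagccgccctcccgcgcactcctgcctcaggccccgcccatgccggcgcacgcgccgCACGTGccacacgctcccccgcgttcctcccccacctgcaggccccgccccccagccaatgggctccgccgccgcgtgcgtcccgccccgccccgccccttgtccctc
Slc16a3: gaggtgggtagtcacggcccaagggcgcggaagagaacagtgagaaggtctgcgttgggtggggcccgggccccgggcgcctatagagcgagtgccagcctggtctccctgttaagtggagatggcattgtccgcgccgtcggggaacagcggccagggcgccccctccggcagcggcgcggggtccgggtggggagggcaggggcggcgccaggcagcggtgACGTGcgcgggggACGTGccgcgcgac
The matches of Slc16a3 begin 27 and 14 bases before that internal start. ACGTG was found for 17 of the 23 glycolysis and hypoxia genes with a window (73.9%), against 19.6% of all windows and 28.4% of the tested genes with a window. For comparison the tight junction list had it in 10 of 17 and the epithelial list in 3 of 14.

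Genes of sterol and fatty acid synthesis had lower values in Cdh1-Tg. All 24 tested members had a log2 fold change below 0 (6525 of 14416 tested genes did), 20 were lower without the fold condition (7.51% of all tested genes were), 3 fell (12.5% of the list, against 1.3% of all tested genes) and none rose, with a median of -0.69. Scd1, the desaturase of fatty acid synthesis, had 157 and 144 TPM in TKO, 58.6 and 55.5 in Cdh1-Tg and 48.2 and 52.4 in WT (-1.38 ± 0.10, limma adjusted p = 6.38e-07). Insig1, the sensor that holds the pathway in check, had 158 and 159.5 in TKO, 69.4 and 67.3 in Cdh1-Tg and 62.8 and 72 in WT (-1.21 ± 0.13, adjusted p = 3.44e-05). Mvd, an enzyme of the mevalonate branch, went from 107 and 106 to 52.9 and 47.7 (-1.07 ± 0.11, adjusted p = 1.45e-05), with 0.99 in place of 1.07 as the size of the fall without Cdh1-Tg replicate 2. Cdh1-Tg thus lay near WT in Scd1 and Insig1, and TKO above both. Against WT the list's median was 0.23, with 1 member called lower in Cdh1-Tg and none higher (4.3% and 5.56% of all tested genes). Against TKO the list's median was -0.03 in EpiLC and -0.06 in ESC. The difference from TKO was called as lower in PGCLC than in EpiLC for 2 members (0.895% of all tested genes) and than in ESC for 3 (0.971%).

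Immediate early genes, switched on within minutes of a growth or stress signal, included several of the deepest falls. Of 19 tested members 9 fell and none rose (47.4% of the list, against 1.3% of all tested genes), with a median of -1.26. Fos, a subunit of AP-1, had 307 and 389.9 TPM in TKO, 23.9 and 13 in Cdh1-Tg and 526 and 666 in WT (-4.22 ± 0.41, limma adjusted p = 7.73e-05). Egr1, a zinc finger factor downstream of ERK signals, had 215 and 197 in TKO, 16.6 and 7.39 in Cdh1-Tg and 236 and 253 in WT (-4.09 ± 0.27, adjusted p = 1.25e-06). Zfp36, which destabilises inflammatory messenger RNAs, had 95.2 and 125 in TKO, 17.4 and 14.8 in Cdh1-Tg and 124 and 159 in WT (-2.69 ± 0.22, adjusted p = 3.48e-06). Fosb, Egr2, Nr4a1, Ier2, Dusp1 and Junb fell too, the last 4 named after their values were seen. The Fosb call was lost with voom (-8.39, limma adjusted p = 0.142, in a range of 5.81e-08 to 0.142). The Cdh1-Tg pairs of Fos, Egr1 and Zfp36 overlapped with neither TKO nor WT. Against TKO, 28.8% of all tested genes were lower with no overlap, and no such share was counted against WT. Other measurements move with the low immediate early values. The Ovol2a/2b-Tg pair was lower still, with Fos at 5.66 and 6.99, Egr1 at 3 and 1.87 and Zfp36 at 14 and 13. The libraries of the other 7 lines had Fos between 46.2 and 666. Cdh1-Tg was also low in Fos before the PGCLC stage, with 2.77 and 2.2 against 56.6 and 58.8 in TKO ESC and 0.36 and 0.512 against 7.84 and 3.78 in TKO EpiLC. The part of the line, of its handling or of a batch in these values was not tested.

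The promoter of Zfp36 is given as the immediate early example, since it holds a CArG box, the element bound by serum response factor in such genes. It spans chr7:28379229-28379478 (minus strand, RefSeq GRCm38.p6, 250 bases before the start), and capitals mark the box, searched on both strands.
Zfp36: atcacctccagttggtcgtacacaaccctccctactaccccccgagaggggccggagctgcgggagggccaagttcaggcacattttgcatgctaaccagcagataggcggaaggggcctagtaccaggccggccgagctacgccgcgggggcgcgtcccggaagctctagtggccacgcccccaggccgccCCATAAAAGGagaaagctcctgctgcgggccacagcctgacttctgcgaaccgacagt
The box, CCATAAAAGG, begins 58 bases before the start. It was found for 2 of 15 immediate early genes with a window (13.3%), against 1.63% of all windows and 1.65% of tested genes with a window.

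The largest single changes included genes outside the lists. Sprr2b, a cornified envelope protein of stratified epithelia, had 213 and 282 TPM in TKO and 2.28 and 2.93 in Cdh1-Tg (-6.10 ± 0.49, limma adjusted p = 1.09e-05), with 71.7 and 54.9 in WT and 1.88 and 2.62 in Ovol2a/2b-Tg. Its level is uncertain, since 21.8% of its 40-base words are shared with other genes. Chac1, an enzyme that degrades glutathione and is induced by the amino acid stress response, had 25.6 and 20.7 in TKO, 1.83 and 0.83 in Cdh1-Tg and 4.29 and 6.21 in WT (-3.40 ± 0.25, adjusted p = 7.69e-07). Among the 12 largest rises, those above Map1b beside Cdh1 and Prdm1 were Sprr2k, AY074887, Mup6, 1700019D03Rik, Pet117, D830031N03Rik and Ccl2. Of their words 100% for Pet117, 29.6% for 1700019D03Rik and 12.6% for Mup6 are shared with other genes. The calls of Ccl2 and 1700019D03Rik were lost under some alternatives. Next in size came Map1b, a microtubule protein of neurons, with 11.4 and 9.67 in TKO and 36 and 33.3 in Cdh1-Tg (1.63 ± 0.15, limma adjusted p = 4.42e-06), and Foxi3, an ectodermal forkhead factor. Foxi3 had 3.21 and 3.49 in TKO, 13.8 and 11 in Cdh1-Tg and 12.2 and 12.5 in WT (1.61 ± 0.25, adjusted p = 0.000554). Map1b was as high in Ovol2a/2b-Tg, at 30.3 and 35.6, and as low in WT as in TKO, at 10.3 and 9.

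Among the 12 largest falls, 6 genes were near 0 in Cdh1-Tg at every stage, a group picked after the values were seen. The histone gene Hist2h2ab had 37.1 and 48 TPM in TKO PGCLC and 0 and 0.425 in Cdh1-Tg, 26.2 and 36.1 against 0.86 and 1.22 in EpiLC, and 15.5 and 9.41 against 0 and 0.309 in ESC. Hist2h2ac, Rasl2-9, Cks1brt, BC048507 and Hist1h2aa were also called lower in Cdh1-Tg in EpiLC and ESC. Of the 6 genes, BC048507 shares 2.5% of its 40-base words with other genes and the rest 6.5% to 46.2%. Ovol2a/2b-Tg PGCLC shared this, with Hist2h2ab listed at 0 in both libraries, whereas the other 7 lines had 13.9 to 57.4. Genes that share at least 5% of their 40-base words with another gene made up 14.6% of tested genes, 9.93% of the called rises and 30.1% of the called falls. How reads from such copies were counted is not stated in the labels, and the part of this in the falls was not tested.

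**Figure D4:**
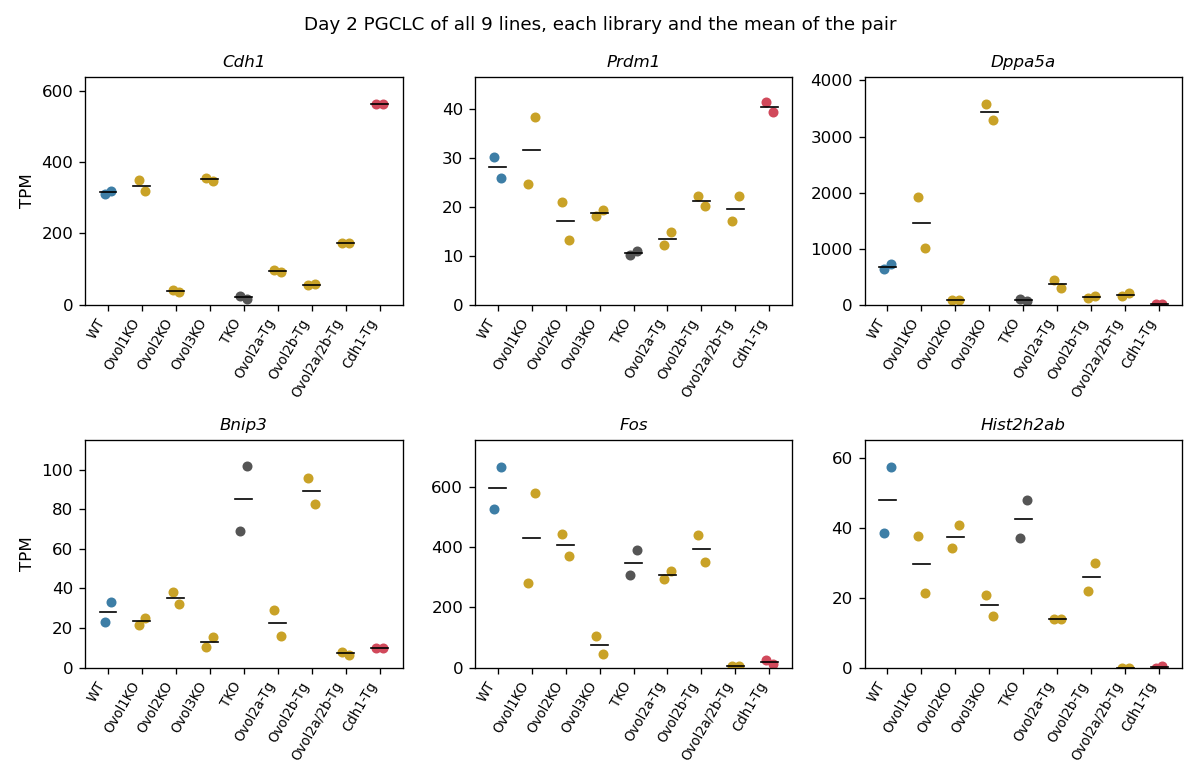
Each panel gives the TPM of 1 gene in the 2 PGCLC libraries of each of the 9 lines, with a line at the mean of the pair and an axis that starts at 0. Cdh1 and Prdm1 are highest in Cdh1-Tg, and Dppa5a is lowest there. For Bnip3 and Hist2h2ab Ovol2a/2b-Tg is as low as Cdh1-Tg, and for Fos it is lower.

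Cdh1-Tg and Ovol2a/2b-Tg PGCLC still differed in 654 genes (4.54%), 305 higher (2.12%) and 349 lower (2.42%) in Cdh1-Tg. Prdm1 was higher in Cdh1-Tg than in that line (1.02 ± 0.21, limma adjusted p = 0.00266), as was Cdh1 (1.69 ± 0.11, adjusted p = 2.3e-07). Nodal was lower (-1.72 ± 0.16, adjusted p = 3.98e-06), and so were Dppa5a (-4.10 ± 0.30) and Dppa4 (-3.15 ± 0.31). Naive pluripotency genes were lower in 10 of 18 cases and Hox and Cdx genes higher in 17 of 39, with none in the other direction. No member of the glycolysis or sterol lists was called in this contrast, and 3 immediate early genes were higher in Cdh1-Tg. Against WT, 1421 genes (9.86%) differed, 801 higher and 620 lower.

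The difference between the lines was in part already there at earlier stages. In EpiLC 412 genes were called between Cdh1-Tg and TKO (2.86%) and in ESC 95 (0.659%). Of the PGCLC calls, 42 rises (29.4%) and 56 falls (29.8%) were called in the same direction in EpiLC, which is 26.9% and 21.9% of the EpiLC rises and falls. With ESC, 2 rises (1.4%) and 24 falls (12.8%) were shared, 7.14% and 35.8% of the ESC calls. These comparisons share the lines but no library. Immediate early genes fell in 7 of 19 cases in EpiLC (1.78% of all tested genes were lower) and 8 of 19 in ESC (0.465%), and naive genes in 5 of 18 in EpiLC, among them Dppa5a at 513 and 504 TPM against 1205 and 967.

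Interaction tests compared the differences in PGCLC with those at the earlier stages. The Cdh1-Tg against TKO difference was larger or smaller in PGCLC than in EpiLC for 309 genes (2.14%), 180 toward higher (1.25%) and 129 toward lower (0.895%), and than in ESC for 269 genes (1.87%), 129 toward higher (0.895%) and 140 toward lower (0.971%). Without EpiLC TKO replicate 2 the 180 became 119, and without ESC TKO replicate 2 the 140 became 92. Prdm1 was low in EpiLC of both lines, at 0.434 and 0.378 TPM in Cdh1-Tg and 0.492 and 0.268 in TKO, and its difference between the lines was larger in PGCLC by a log2 of 1.82 (called). Nodal had 35.6 and 32 against 36.3 and 39.3 in EpiLC and differed from its PGCLC value by -1.31 (called). Slc16a3 was 269 and 273 in Cdh1-Tg EpiLC and 202 and 223 in TKO EpiLC, and its interaction of -2.61 was among the largest. Dppa4, Dppa2, Dll3, Cdx4, Klf2 and Tfap2c were called in both interactions. By contrast, Egr1 and Hist2h2ab were called in neither. Egr1 fell by 4.27, 3.17 and 4.09 on the log2 scale in ESC, EpiLC and PGCLC, and Hist2h2ab fell by 3.52, 3.97 and 5.18. Where a gene is near 0 in both lines at the earlier stage, its interaction largely repeats the PGCLC difference. Tfap2c had 0.859 to 0.991 TPM in Cdh1-Tg EpiLC and 0.91 to 1.38 in TKO EpiLC. The whole Hox and Cdx list, which holds Cdx4, summed to at most 8.84 and 7.19 TPM there, and to at most 15.5 and 18.4 in ESC.

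**Figure D5:**
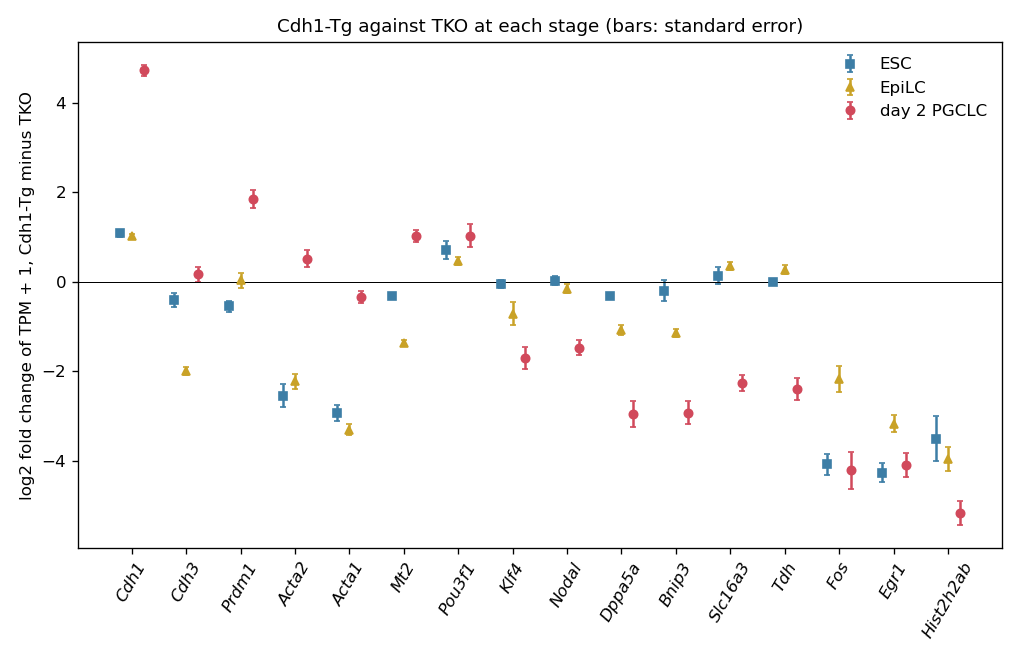
Points give the log2 fold change of TPM + 1 of Cdh1-Tg against TKO in ESC (squares), EpiLC (triangles) and day 2 PGCLC (circles), with bars for the standard error. Cdh1, Prdm1, Nodal, Slc16a3 and Tdh depart from 0 most in PGCLC, Fos, Egr1 and Hist2h2ab are below 0 at every stage, and Acta1, Acta2 and Cdh3 are much lower in EpiLC than in PGCLC.

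Some genes were called before the PGCLC stage and not in it. P-cadherin (Cdh3), another classical cadherin, had 13.2 and 10.8 TPM in Cdh1-Tg EpiLC against 49.4 and 51.9 in TKO and 52.9 and 54.5 in WT, but 10.7 and 9.59 against 9.4 and 8.43 in PGCLC (EpiLC -2.0, PGCLC 0.17, interaction 2.16, called). The actin genes behaved likewise. Acta2, smooth muscle actin, had 2.05 and 1.67 in Cdh1-Tg EpiLC against 11.4 and 13.4 in TKO, and 83.2 and 82.9 against 55.1 and 60.3 in PGCLC. Acta1, skeletal actin, had 6.35 and 5.35 against 67.9 and 65.8 in EpiLC, and 79.8 and 79.3 against 96.1 and 105 in PGCLC. In PGCLC neither actin gene was called (0.52 ± 0.18 and -0.34 ± 0.14), and both interactions were (2.74 and 2.98).

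Markers of other tissues gave few calls. Of 13 tested endoderm, 15 trophoblast, 26 imprinted and 8 early cleavage-stage genes none rose or fell in PGCLC. Among all tested genes 0.992% rose and 1.3% fell, the level for each share below. Nefm rose among 15 neural genes (6.67% of the list, 1.30 ± 0.19, limma adjusted p = 0.000332), with 0.63 and no call with 5 added to the TPM. Thy1 fell among 16 fibroblast and feeder genes (6.25% of the list, -1.16 ± 0.25, limma adjusted p = 0.0046). Thy1 missed the threshold without Cdh1-Tg replicate 1 (adjusted p = 0.0592) or TKO replicate 1 (0.0625), in a range of 6.72e-05 to 0.0625. The summed level of the fibroblast list was 896 TPM in both TKO libraries and 1113 to 1216 in Cdh1-Tg, and that of Y-linked genes was at most 3.4 in both lines against 61.5 to 65.7 in WT. Among 18 YAP and TEAD targets Nt5e and Ankrd1 rose (11.1% of the list) and Cyr61 fell (5.56%), and none of these calls held under every alternative. Those of Ankrd1 and Cyr61 were each lost without any 1 of the 4 libraries (limma adjusted p of 0.0976 to 0.145 for Ankrd1 and 0.0668 to 0.171 for Cyr61), and that of Nt5e with 5 added to the TPM (0.68) and with voom (1.86, adjusted p = 0.124, in a range of 0.00194 to 0.124). Of 16 BMP targets Id4 rose (6.25% of the list, 1.13 ± 0.20), with 0.94 without Cdh1-Tg replicate 1 and 0.75 without TKO replicate 1. Of 23 canonical WNT targets Cdx4 alone fell (4.35% of the list).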

How the data were processed

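Per the labels' protocols, poly(A) RNA was made into strand-marked libraries; per the submitters' processing notes, HISAT2, featureCounts and edgeR were used with mm10. No version, gene annotation or strand setting is stated there. The authors deposited 1 table of TPM for 20036 genes in 54 libraries. The steps between the smallest TPM values were used to recover read counts for 17973 genes, with 100.00% of their values above 0 within 0.01 of a whole read, which gave library depths and an alternative test. Genes with at least 1 TPM in at least 2 libraries (14416) were tested as log2(TPM + 1) with limma 3.58.1 in R 4.3.3. The PGCLC comparisons were fitted on the 18 PGCLC libraries (9 residual degrees of freedom) and the differences between stages on all 54 (27 degrees of freedom), with variance estimates shrunk with trend and robust settings. A call needed a Benjamini-Hochberg adjusted p under 0.05 and a log2 fold change of 1 or more either way. The fit was also run on simulated data with known folds, a check of the code and not of the results here. A permutation of 2 against 2 libraries cannot give a two-sided p below 0.33. Groups came from the titles. The members and 32 gene lists (620 genes, 566 tested) were chosen with earlier results of these data known. Named were Cdh1 and the Ovol genes, the 12 largest called rises and falls with pairs that do not overlap and a mean of at least 5 TPM, up to 5 members of each list by size, all adherens junction genes, and the 6 largest differences between stages each way. A share of 40-base words was counted on GENCODE transcripts of GRCm38. Alternatives changed the added TPM, filter, scaling, test, replicate block, libraries in the fit and each left-out library. Equal replicate numbers did not mark pairs by the labels, and deviations of same-numbered libraries correlated at 0.039.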

Additional observations from a re-analysis of the deposited data

Results flagged for a closer look

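For 309 genes the difference between Cdh1-Tg and TKO in PGCLC departed from that in EpiLC, and for 269 from that in ESC, by a limma test of the difference itself. Values below are those differences of differences in log2(TPM + 1). For Cdh1 they were 3.71 against EpiLC and 3.64 against ESC. Muscle actins, low in ESC and EpiLC of Cdh1-Tg but not in PGCLC, gave 2.98 and 2.60 for Acta1 and 2.74 and 3.07 for Acta2. Prdm1 gave 2.40 against ESC and the matrix gene Ctgf 2.38. The metallothionein gene Mt2, which was lower in EpiLC of Cdh1-Tg and higher in PGCLC, gave 2.38 against EpiLC, and Cdh3 gave 2.16. Sprr2k, listed at 0 in both TKO PGCLC libraries, gave 2.78 and 2.68, sizes that depend on the added 1 TPM.

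Toward lower values in PGCLC, Sprr2b gave -6.10 against EpiLC and -6.36 against ESC, and Fosb, whose PGCLC call was lost with limma-voom (adjusted p = 0.142), gave -3.72 and -3.79. Against EpiLC, Slc16a3 gave -2.61, the threonine dehydrogenase gene Tdh -2.66, Tgfbr3l -2.44 and the homeobox gene Tlx2 -2.21. Tlx2 was at most 0.131 TPM in EpiLC of both lines. Against ESC, Chac1 gave -2.84, Bnip3 -2.73, Dppa5a -2.64 and the streak ligand Wnt8a -2.60. For Sprr2b 21.8%, for Tgfbr3l 48.1%, for Dppa5a 48.4% and for Tdh 13.3% of the 40-base words are shared with other genes.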

How the results depend on the processing

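The 331 calls in PGCLC became 114 with 5 in place of 1 added to the TPM (26.32% of them higher, against 43.2%, and 50.21% of 474 with 0.1 added) and 747 with limma-voom on recovered reads. The 309 differences from EpiLC became 96 and 529, and the 269 differences from ESC 98 and 437, under the same 2 settings. Voom kept 314 of the 331 genes. In the difference from ESC it kept 197 of 269 and gave 3 the opposite sign. Leaving out 1 library gave 256 to 356, 217 to 373 and 181 to 288 calls and kept 232 to 250 of the 331 genes. Equal replicate numbers share only a number, and with them as a replicate block 328, 300 and 253 genes were called. Without genes that share sequence 261, 281 and 221 remained as counts, and with the trend on gene length removed 309, 333 and 265, both chosen after seeing the data. Other filters, scaling and fits gave counts within 1.5 times the reported ones. Of 74 named genes called in PGCLC, 40 were called under every alternative, 22 were lost without 1 library and 21 with 5 added. Where an arm keeps 1 library, that library is assumed to vary like the other groups. TKO replicate 1, with 2936639 reads, is the shallowest of the 4 libraries and limits low genes most.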
